A study of Mus musculus with 18 samples.

Results

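Transcript levels in interferon-producing killer dendritic cells (IKDC) were compared with those in plasmacytoid dendritic cells (PDC). Both populations were taken from mouse spleen, and the samples were assigned by their titles, 2 of IKDC and 2 of PDC. These 4 preparations, of 6 in the series, were each measured on U74A, U74B and U74C, the 3 arrays of the Affymetrix U74 version 2 set, giving 12 of the 18 arrays. The other 2 preparations were conventional dendritic cells (cDC), the submitters' control. The sources used here do not give strain, age, number of mice or the markers used for sorting. The samples were separate preparations by the stated design, but it is not known whether the animals differed, so the p-values measure only the spread between these samples, part of which may be technical.

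Natural killer (NK) cells are innate lymphocytes that kill target cells with perforin and granzymes and read their targets through activating and inhibitory surface receptors. Plasmacytoid dendritic cells sense nucleic acids through Toll-like receptors of the endosome and are known for type I interferon. Their identity depends on the E protein TCF4, a DNA-binding factor that the inhibitor protein ID2 opposes. The name IKDC describes cells with features of both killer and dendritic cells, and the comparison asks how far the population differs from the interferon-producing dendritic cell of the same organ.

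Signals are the deposited array intensities, and a value under 60 was treated as not distinguishable from background. A probe set is a group of probes for 1 transcript. A difference is the mean log2(signal + 16) in IKDC minus that in PDC, given with its standard error, so a positive value is higher in IKDC. Each p-value is limma's after Benjamini-Hochberg adjustment for all 23285 tested probe sets, and 0.05 was the threshold. Where both samples of 1 group lay under 60, the ratio is a lower bound against 60. On U74B and U74C it is a bound wherever both lay under the highest unspiked control there, and is taken against that control. Levels in bulk samples cannot tell fewer cells of a type apart from less RNA per cell.

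The samples differed in quality as well as in population. The Gapdh control gave a ratio of 3' to 5' signal, which shortened RNA raises, of 3.34 and 3.59 in the IKDC samples, 3.19 in PDC replicate 2 and 6.0 in PDC replicate 1. Correlation across probe sets was 0.827 to 0.953 between the IKDC samples and 0.809 to 0.886 between the PDC samples, depending on the array type. Of the probe sets, 14.2% differed over 2-fold between the IKDC samples and 20.3% between the PDC samples. Unspiked bacterial controls reached signals of 45.2 on U74A, 122.7 on U74B and 148.7 on U74C, so low signals on U74B and U74C are less secure. The part of these differences in the results was not tested.

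The 5 marker genes separated the populations. Ncr1, the gene of the NK activating receptor NKp46, had signals of 1357 and 1608 in the IKDC samples and 84.2 and 60.9 in the PDC samples. Klra3, a Ly49 receptor gene, stood at 3118 and 2872 against 177 and 105. Both genes were high in each IKDC sample and low in each PDC sample, and the differences were 4.09 ± 0.30 (adjusted p = 1.97e-05) and 4.30 ± 0.30 (adjusted p = 1.76e-05). Siglech, a lectin receptor gene of PDC, had signals of 7189.9 and 6514 in PDC and 102 and 157 in IKDC. Bst2, which encodes the PDC surface antigen tetherin, stood at 9569.7 and 6657 against 318 and 349. For these a wide gap ran the other way, -5.59 ± 0.57 (adjusted p = 0.000403) and -4.52 ± 0.26 (adjusted p = 1.76e-05). Id2 had 3781 and 3011 in IKDC, 433 and 253 in PDC and 2576 and 2810.2 in cDC. Its difference was 3.29 ± 0.30 (adjusted p = 8.94e-05), and the groups did not overlap. The PDC samples were thus high in known PDC markers, and the IKDC samples were high in NK receptor genes. The series holds no NK cell sample, so whether these markers tell IKDC from NK cells was not tested.

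The promoter windows of Ncr1 and Siglech are shown with matches to a motif of a factor family known from each lineage. Each window runs from 250 bases before to 50 after the start site, 5' to 3' on the gene's strand, from RefSeq on GRCm38.p6. For Ncr1 the first of its 2 listed windows is chr7:4337465-4337764 on the plus strand, with the 2 matches to TGTGGT, the core of the Runx site, in capitals. For Siglech it is chr7:55767934-55768233 on the plus strand, with the 3 matches to CANNTG, the E-box that E proteins bind, in capitals.
Ncr1: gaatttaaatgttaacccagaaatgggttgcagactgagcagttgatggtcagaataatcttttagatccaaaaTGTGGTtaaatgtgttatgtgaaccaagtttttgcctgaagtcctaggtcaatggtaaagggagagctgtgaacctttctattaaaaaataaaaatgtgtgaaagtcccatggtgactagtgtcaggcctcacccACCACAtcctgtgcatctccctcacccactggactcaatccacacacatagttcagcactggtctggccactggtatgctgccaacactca
Siglech: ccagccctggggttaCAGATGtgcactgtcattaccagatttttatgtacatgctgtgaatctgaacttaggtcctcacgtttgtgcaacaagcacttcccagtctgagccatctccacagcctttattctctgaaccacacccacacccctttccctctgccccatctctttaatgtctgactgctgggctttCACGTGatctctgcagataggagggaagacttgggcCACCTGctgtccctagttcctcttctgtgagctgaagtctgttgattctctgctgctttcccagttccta

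Relative to the start site, the Runx matches of Ncr1 begin at -176 and -41, the second on the opposite strand, and the E-boxes of Siglech at -235, -56 and -20. Each window also holds a match to the other motif, at -211 in Ncr1 and -115 in Siglech. Over both strands, TGTGGT was present in 20% of 385 windows of genes higher in IKDC, 15.5% of 388 windows of genes higher in PDC and 12.9% of the 12477 windows of all tested genes. CANNTG was present in 69.4%, 69.8% and 65.6%, and its version CACCTG in 20.5%, 21.9% and 19.3%. The T-box motif AGGTGTGA, read by factors such as EOMES, was in 1.82%, 0.515% and 1.07%. A match is a description of the letters and not a site of binding. Windows were found for 263 of 334 and 293 of 381 genes.

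Over all probe sets, 1036 of 23285 passed the threshold, which is 4.45%, with 480 higher in IKDC (2.06%) and 556 higher in PDC (2.39%). On U74A 3.49% were higher in IKDC and 4.38% higher in PDC (7.87% in all), on U74B 2.08% and 2.17% (4.25%), and on U74C 0.743% and 0.82% (1.56%). By 1 probe set per gene, 715 of 12193 genes passed, or 5.86%, 334 of them higher in IKDC (2.74%) and 381 higher in PDC (3.12%). These gene percentages are the background for the gene lists below. The lists were chosen with earlier results of these data known, so their counts are not independent support. The median difference of all probe sets was -0.016 and the median standard error 0.431, and no difference smaller than 0.922 in size passed. Without IKDC replicate 1, 184 probe sets were higher in IKDC and 322 higher in PDC. Without IKDC replicate 2 the counts were 186 and 307. Without PDC replicate 2, 342 were higher in PDC. Both samples of IKDC lay above both of PDC for 2915 genes (23.9%), and both of PDC above both of IKDC for 2706 (22.2%), most of them not past the threshold. Several probe sets were tested for 137 of the 334 genes higher in IKDC, and another passed the same way in 39 of them. For the 381 genes higher in PDC the counts were 154 and 58.

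**Figure D1:**
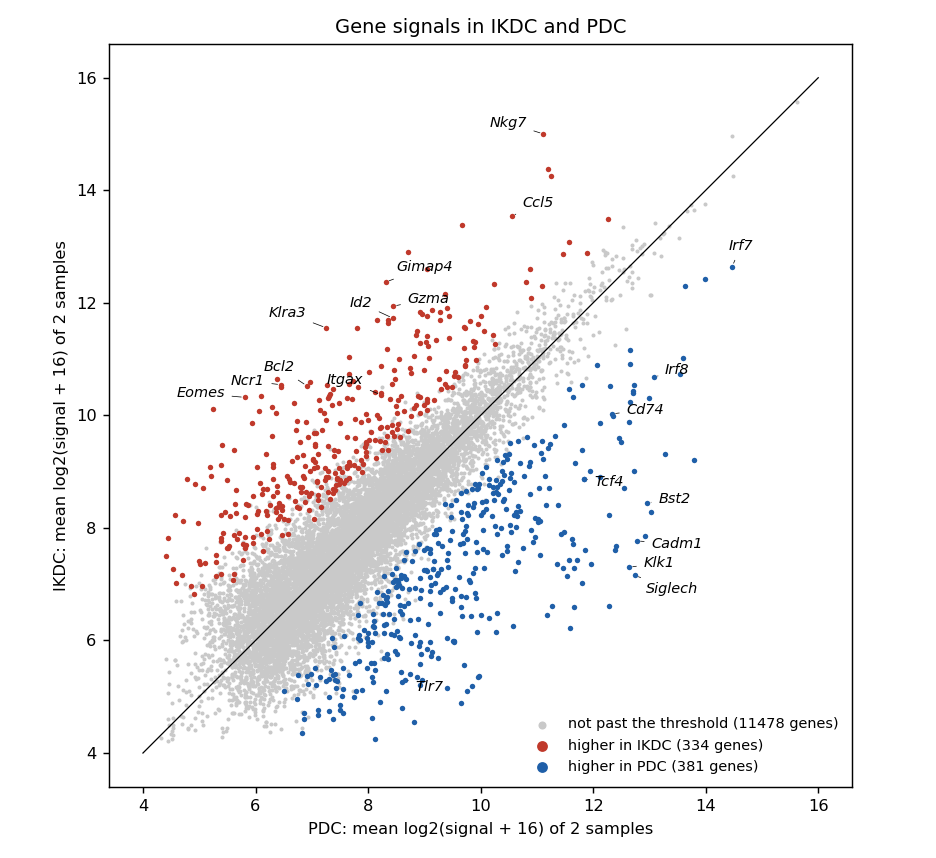
Mean log2(signal + 16) of the 2 IKDC samples (vertical axis) against that of the 2 PDC samples (horizontal axis) for 12193 genes, 1 probe set each. Red points are the 334 genes higher in IKDC and blue points the 381 higher in PDC at an adjusted p under 0.05, grey points are all others, and the line marks equal signals.

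The differences in PDC reached further. Of the genes higher in IKDC, 168 differed by 2 or more, 55 by 3 or more, 12 by 4 or more and none by 5 or more. Of the genes higher in PDC the counts were 214, 81, 34 and 7. The median difference was 2.01 for the first and -2.16 for the second. In 56 of the IKDC-high genes (16.8%) both PDC signals were under 60, and in 87 of the PDC-high genes (22.8%) both IKDC signals were. The mean in cDC lay between the other two for 202 of the IKDC-high and 241 of the PDC-high genes. It was below PDC for 95 of the first and below IKDC for 57 of the second. In cDC it was above IKDC for 37 of the first and above PDC for 83 of the second.

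Among the genes leading in IKDC were several known from NK cells and other lymphocytes. Ctla2b, which encodes an inhibitor of cathepsin proteases, had signals of 1182 and 1006 in IKDC and 22.6 and 21.4 in PDC, at least 18.2-fold higher (adjusted p = 1.89e-05). Eomes, a T-box factor needed for NK maturation, stood at 1211 and 1316 against 34.7 and 46.2, at least 21.0-fold higher, and its 2 probe sets passed. Cd2, an adhesion receptor of NK and T cells, stood at 1937 and 1300 against 128 and 32.7 (4.26 ± 0.45). Neither Ctla2b nor Eomes reached 60 in a PDC sample, while Cd2 did so in PDC replicate 1. Txk, a Tec family kinase, had 1352 and 1219.7 against 103 and 23.2, and Samd3, a gene with a SAM domain, 6375 and 9275 against 506 and 320.4. The differences were 4.25 ± 0.48 and 4.20 ± 0.32, and in both the lower PDC sample was replicate 2. Fzd5, which encodes a Wnt receptor, was at least 3.68-fold higher and Tm6sf1 at least 11.6-fold. Osbpl3, of a lipid-binding protein family, was at least 7.5-fold and Ipcef1 at least 4.3-fold higher. These last 4 genes are on U74B, and their PDC signals all lay under its highest control. Txk, Osbpl3 and Ipcef1 each passed by 1 of 2 probe sets.

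**Figure D2:**
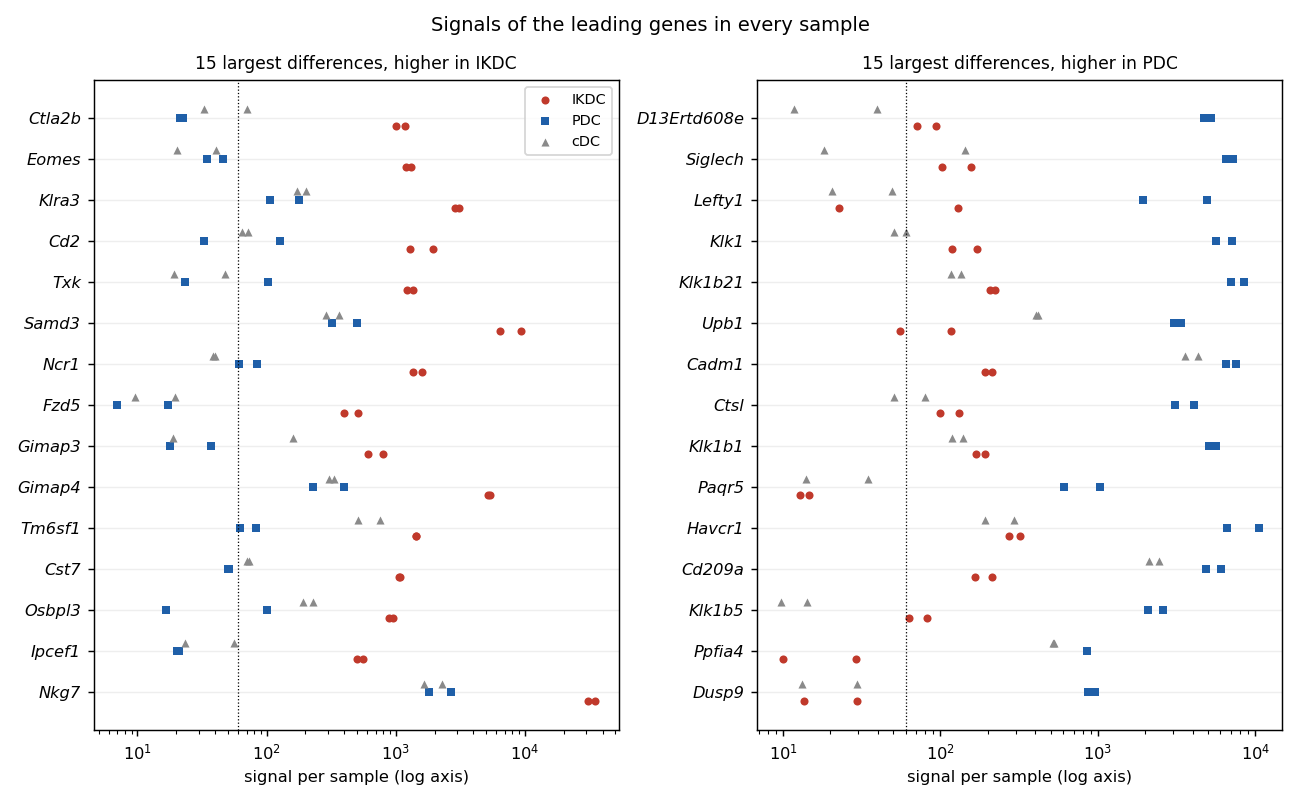
Signal in every sample (log axis) for the 15 genes with the largest differences in each direction, with IKDC as red circles, PDC as blue squares and cDC as grey triangles. The dotted line is the signal of 60. The genes were chosen for groups that do not overlap.

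Of 16 measured NK receptors, 13 were higher in IKDC and 0 lower, with a median difference of 2.51, against 0.007 over all genes. The count was 8 without IKDC replicate 1. Klrk1, which encodes the activating receptor NKG2D, had signals of 3516 and 3763 in IKDC and 505 and 438 in PDC (2.91 ± 0.25, adjusted p = 0.000154), and its 3 probe sets passed. Klrd1, the CD94 chain that pairs with NKG2 receptors, stood at 2949.5 and 3051 against 778 and 877 (1.84 ± 0.25). The groups did not overlap for either gene, though the PDC signals were well above 60. Klre1, a lectin-like receptor gene, had 1268 and 853 against 147 and 120.5 (2.82 ± 0.32). Klrb1a, of the NKR-P1 family, stood at 426 and 462 against 24.5 and 34.1, at least 7.39-fold higher. Klra7, a second Ly49 gene, had 1141 and 949 against 105 and 39.6 (3.69 ± 0.38). Its probe set, like that of Klra3, is of a type that can read several family members, and Ly49 paralogs cannot be told apart by it. Cd160, an activating receptor gene, stood at 834 and 727 against 142 and 22.8 (3.34 ± 0.52). The 3 members that did not pass were Klra5 (1.01 ± 0.43), Klra6 (0.66 ± 0.47) and Klrb1b (0.48 ± 0.37).

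Among 19 cytotoxic granule and death ligand genes, 10 were higher in IKDC and 0 higher in PDC, with a median of 1.99. Nkg7, a granule membrane protein gene, had signals of 30720 and 34971 in IKDC and 2679.5 and 1813 in PDC (3.88 ± 0.27, adjusted p = 1.97e-05), and all 3 of its probe sets passed. Gzma, which encodes granzyme A, stood at 4262 and 3590.5 against 511 and 215 (3.49 ± 0.39). Prf1, the pore-forming perforin, had 826 and 852 against 127 and 61.1 (3.03 ± 0.34). In each of the 3 genes the groups were separate and PDC replicate 1 lay above PDC replicate 2. Cst7, a cystatin that regulates granule proteases, stood at 1079.5 and 1062 against 50.4 and 51.0, at least 17.8-fold higher. Ctsw, a protease of cytotoxic lymphocytes, had 1677 and 1387 against 128 and 92.9 (3.62 ± 0.33), and Serpinb9, an inhibitor that protects killer cells from granzyme B, 528 and 531 against 35.6 and 65.5 (3.07 ± 0.37). Serpinb9 passed by 1 of its 2 probe sets. Fasl, the death ligand gene, had 558 and 323 in IKDC, with both PDC signals under 60. Several exocytosis genes of the list did not pass, with -0.06 ± 0.26 for Lamp1, 0.33 ± 0.28 for Rab27a, 0.35 ± 0.26 for Unc13d and -0.56 ± 0.27 for Stxbp2. Another exocytosis gene, Stx11, passed (adjusted p = 0.00474). Its call ended with no intensity trend (adjusted p = 0.0555), with the mean over probe sets (0.055) and without IKDC replicate 2.

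Signalling genes behind these receptors moved both ways. Of 25, 9 were higher in IKDC and 2 higher in PDC, with a median of 0.30. Sh2d2a, a T and NK cell adaptor gene, had 1066 and 1189 in IKDC and 109 and 33.4 in PDC (3.86 ± 0.42). Ptpn22, a lymphoid phosphatase gene, stood at 2163 and 2029 against 271 and 128 (3.38 ± 0.34), and Skap1, an adaptor of integrin activation, at 1389 and 1253 against 208 and 99.1 (3.06 ± 0.35). In all 3 the groups were apart, and PDC replicate 1 was the higher of the PDC samples. Skap1 passed by 1 of its 2 probe sets. Zap70, the kinase below ITAM-bearing receptors, had 1046 and 1311 against 185 and 143 (2.73 ± 0.40), and Lcp2, the SLP-76 adaptor, 450.4 and 455 against 100.3 and 63.9 (2.28 ± 0.29). Lcp2 was higher still in cDC, at 654 and 665. Blnk, the adaptor that takes the place of SLP-76 in B cells, ran the other way with 112 and 38.9 in IKDC and 904 and 1396 in PDC (-3.76 ± 0.41, adjusted p = 0.000303), and both of its probe sets passed. The second gene higher in PDC was the phosphatase gene Ptpn6 (-1.54 ± 0.31, adjusted p = 0.0161). The call on Ptpn6 ended without IKDC replicate 1, IKDC replicate 2 or PDC replicate 2 and in 2 other settings (adjusted p up to 0.181).

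Of 13 NK lineage transcription factors, 4 were higher in IKDC and 0 higher in PDC, with a median of 1.21. Besides Eomes and Id2 they were Stat4, which carries interleukin 12 signals, with 1155 and 1197 in IKDC and 145 and 50.5 in PDC (3.53 ± 0.40), and Nfil3, needed for NK development, with 264 and 126 against 45.7 and 17.1 (at least 3.04-fold). The groups were far apart in Stat4, while Nfil3 was low throughout. The call on Nfil3 ended with the mean over probe sets (adjusted p = 0.0737), without PDC replicate 2 (0.0692) and without IKDC replicate 1 (0.243). The other 9 did not pass, among them Tox (1.21 ± 0.59), Ets1 (1.41 ± 0.38), Runx3 (1.12 ± 0.38) and Gata3 (0.70 ± 0.38).

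A few cytokine and chemokine genes known from NK cells were higher in IKDC. Ifng, which encodes interferon gamma, had signals of 229 and 177 in IKDC and 37.5 and 16.9 in PDC, at least 3.36-fold higher (adjusted p = 0.00546). The call on Ifng ended without IKDC replicate 1 (adjusted p = 0.138) and without IKDC replicate 2 (0.0667). Xcl1, a chemokine gene of NK and T cells, stood at 394 and 348 against 73.0 and 37.9 (2.48 ± 0.39), and Ccl5 at 12796 and 11069 against 2474 and 893 (2.99 ± 0.41). The groups were separate in all 3, although the Ccl5 signal of PDC replicate 1 was over 2-fold that of PDC replicate 2. Of 11 interferon and cytokine ligands 3 were higher in IKDC and 0 higher in PDC, and of 13 chemokine ligands 3 and 0. Their medians were -0.26 and -0.31, on the PDC side, and 8 and 10 members did not pass. The calls among the first fell to 1 without IKDC replicate 2. The 2 type I interferon genes tested, Ifna5 (-0.13 ± 0.60) and Ifnab (-0.53 ± 0.45), were low and did not pass.

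Cytokine receptors with their JAK and STAT partners differed both ways. Of 36 genes, 9 were higher in IKDC and 4 in PDC. The IKDC count was 5 without IKDC replicate 1 and 4 without IKDC replicate 2. Il2rb, the chain shared by the interleukin 2 and 15 receptors, had 2924 and 4343 in IKDC and 562 and 409 in PDC (2.85 ± 0.28), though its second probe set did not pass. Jak1, a kinase of many cytokine receptors, stood at 3582 and 3379 against 429 and 614 (2.72 ± 0.30) and passed by both probe sets. Kit, the stem cell factor receptor, had 419 and 481 against 59.9 and 66.4 (2.56 ± 0.30), with 322 and 447 in cDC. In these 3 genes both IKDC samples stood well above both PDC samples. The dendritic cell growth factor receptor gene Flt3 was lower in IKDC, with 261 and 278 against 1918 and 2219 in PDC (-2.87 ± 0.26), although its second probe set did not pass. Csf2rb, the shared chain of the GM-CSF receptor, stood at 189 and 240.4 against 1716 and 2325 (-3.14 ± 0.26). Its paralog Csf2rb2 differed by -3.56 ± 0.42. In cDC, Flt3, at 2388 and 2705, and Csf2rb, at 1969.9 and 2385, were high as well.

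The Gimap genes encode small GTPases that support lymphocyte survival. Of 8 measured, 7 were higher in IKDC and 0 higher in PDC, with a median of 3.13. Gimap4 had signals of 5177 and 5372 in IKDC and 399 and 228 in PDC (4.05 ± 0.30, adjusted p = 1.97e-05), while its second probe set did not pass. Gimap6 stood at 3562 and 2869 against 513 and 185 (3.30 ± 0.40) and Gimap7 at 3103 and 2904 against 319 and 134 (3.75 ± 0.38). In these 3 genes PDC replicate 1 lay above PDC replicate 2. Gimap5 (2.37 ± 0.29) and Gimap8 (2.96 ± 0.45) passed as well, and Gimap3 was at least 5.67-fold higher by 1 of its 2 probe sets. The call on Gimap3 ended without IKDC replicate 1 (adjusted p = 0.0657). Gimap1 had the smallest difference of those that passed (1.42 ± 0.34, adjusted p = 0.0401). The call on Gimap1 ended without IKDC replicate 1, IKDC replicate 2, PDC replicate 1 or PDC replicate 2 and in 5 other settings (adjusted p up to 0.378). Gimap9 did not pass (1.64 ± 0.43, adjusted p = 0.0743). The survival gene Bcl2 had 1490.5 and 1422 in IKDC and 103 and 107 in PDC (at least 9.79-fold), with 5 of its 6 probe sets past the threshold. It was 1 of 2 apoptosis regulators of 21 that were higher in IKDC, and 0 were higher in PDC. The other, Bcl2l11, which encodes the death activator BIM, differed by 1.44 ± 0.27. The call on Bcl2l11 ended without IKDC replicate 1 (adjusted p = 0.0661), without IKDC replicate 2 (0.151) and with the mean over probe sets (0.641).

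The 2 PDC samples were not alike in these lists. In PDC replicate 1, 13 of 16 NK receptors were above replicate 2, with a median difference of 0.49, as were 7 of 8 Gimap genes (0.7) and 14 of 19 cytotoxic genes (0.28). Over all tested genes the median was 0.01. Of the PDC markers 10 of 29 were higher in replicate 1, with a median of -0.26. The NK receptor count was 13 without PDC replicate 1 and 12 without PDC replicate 2. What underlies the difference between the PDC samples was not tested.

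**Figure D3:**
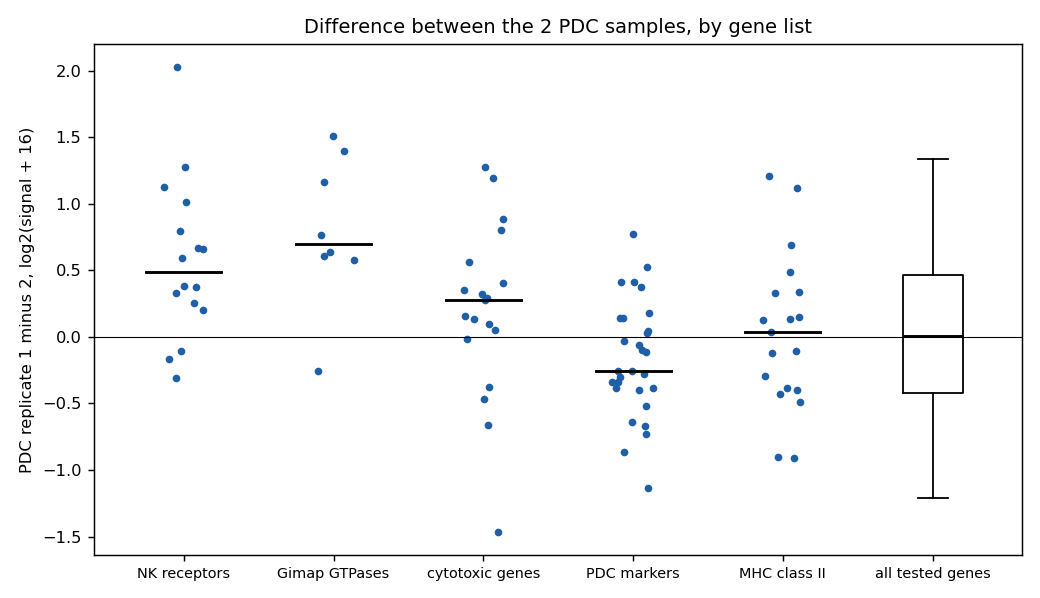
Difference between PDC replicates 1 and 2 in log2(signal + 16) for every tested member of 5 gene lists (blue points, black line at the median). The box gives the median and quartiles of all tested genes, with whiskers from the 5th to the 95th percentile. NK receptor and Gimap points lie mostly above 0 and PDC markers mostly below.

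The genes leading in PDC were its known markers with several less familiar ones. D13Ertd608e, an expressed sequence of unassigned function, had signals of 4730.1 and 5222 in PDC and 93.5 and 71.3 in IKDC (-5.67 ± 0.35, adjusted p = 1.18e-05). Upb1, an enzyme of pyrimidine breakdown, stood at 3375 and 3056 against 55.2 and 117 (at least 26.2-fold). Havcr1, which encodes the receptor TIM-1, had 6575 and 10492 against 322 and 272 (-4.74 ± 0.33). In all 3 the PDC samples stood far above those of IKDC and cDC. Lefty1, of the TGF-beta family, varied within PDC, at 1922 and 4904, against 22.7 and 128 in IKDC (at least 20.6-fold). Cadm1, an adhesion gene, had 6473 and 7591 in PDC, 213 and 192 in IKDC and 3579 and 4341 in cDC (-5.01 ± 0.26), and its 3 probe sets passed. Cd209a, a lectin gene of the DC-SIGN family, stood at 4838 and 6040.4 against 212 and 166 (-4.73 ± 0.26). Dusp9, a MAP kinase phosphatase gene, was at least 7.41-fold higher in PDC, Ppfia4 at least 14.2-fold and Paqr5, a progestin receptor gene, at least 5.33-fold. In Dusp9, 3 of 7 probe sets passed, and in Paqr5 1 of 2. In cDC, Cd209a, at 2450 and 2105, and Ppfia4, at 518 and 524, also stood well above 60. The cDC signals of Lefty1, Dusp9 and Paqr5 were under 60.

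Of 29 measured PDC markers, 27 were higher in PDC and 0 higher in IKDC, with a median of -3.84. This list too was chosen with earlier results of these data known. Ctsl, a lysosomal protease gene, had 3106 and 4107 in PDC and 131 and 99.7 in IKDC (-4.78 ± 0.31), and was near background in cDC, at 79.5 and 51.0. Plac8 stood at 6375 and 5639 against 424 and 383 (-3.84 ± 0.27), and Pld4, an exonuclease of the endosome, at 10135 and 9803 against 514 and 757 (-3.96 ± 0.26). Cd8b1, a chain of the CD8 co-receptor, had 2244 and 2686 against 84.0 and 80.0 (-4.66 ± 0.35). In these 4 genes the lower PDC sample stood far above the higher IKDC sample. In cDC, Plac8, at 3007 and 2213, and Pld4, at 5667 and 4528, were high as well, while Cd8b1, at 26.1 and 6.1, was under 60. Further members past the threshold were Lifr (-4.61 ± 0.36), Nucb2 (-4.60 ± 0.40), P2ry14 (-4.28 ± 0.43) and Cox6a2 (-3.52 ± 0.29). The 2 that did not pass were Ly6d (-1.02 ± 0.37, adjusted p = 0.192) and Atp1b1 (-0.30 ± 0.32, adjusted p = 0.75).

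Tissue kallikreins, secreted serine proteases encoded side by side, formed a block of high PDC signals. Klk1 had 5664 and 7150.2 in PDC and 170.1 and 118 in IKDC (-5.34 ± 0.29, adjusted p = 7.68e-06). Klk1b21 stood at 8454 and 7026 against 206 and 224 (-5.07 ± 0.29), Klk1b1 at 5664 and 5058 against 192 and 167 (-4.78 ± 0.27) and Klk1b5 at 2071 and 2576 against 81.5 and 63.0 (-4.73 ± 0.31). Klk1b22 differed by -4.25 ± 0.28 and Klk1b16 was at least 7.86-fold higher. Klk4, whose probe set is of the single-gene type, was at least 2.35-fold higher. The call on Klk4 ended without IKDC replicate 1, IKDC replicate 2 or PDC replicate 2 and in 3 other settings (adjusted p up to 0.202). In cDC the signals of Klk1, at 50.7 and 60.8, and Klk1b5, at 14.2 and 9.70, were near or below the minimum. Klk1 and the 5 Klk1b genes are read by probe sets of a type shared within gene families, so which paralogs were transcribed cannot be told apart. Klk1 and Klk1b5 also stand in the list of pancreas genes. The other 20 tested members of that list included none higher in PDC and 1 higher in IKDC, Cpb1 (1.53 ± 0.35). The call on Cpb1 ended without IKDC replicate 1, IKDC replicate 2, PDC replicate 2, cDC replicate 1 or cDC replicate 2 and in 4 other settings (adjusted p up to 0.329).

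How alike the paralogs are is shown by a pair of their start regions, from RefSeq on GRCm38.p6. The windows of Klk1b1, chr7:43966501-43966800, and Klk1b5, chr7:44216224-44216523, both on the plus strand, aligned with 84.6% identity over 292 columns. Capitals mark their longest shared stretch, 26 bases, which 2 of the 12477 windows of all tested genes held.
Klk1b1: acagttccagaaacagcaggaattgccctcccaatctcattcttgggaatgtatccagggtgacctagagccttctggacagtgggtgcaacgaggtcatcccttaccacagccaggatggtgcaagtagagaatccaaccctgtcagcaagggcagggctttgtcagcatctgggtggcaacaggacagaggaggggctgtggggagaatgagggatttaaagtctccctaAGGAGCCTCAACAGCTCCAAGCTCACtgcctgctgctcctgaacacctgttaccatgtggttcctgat
Klk1b5: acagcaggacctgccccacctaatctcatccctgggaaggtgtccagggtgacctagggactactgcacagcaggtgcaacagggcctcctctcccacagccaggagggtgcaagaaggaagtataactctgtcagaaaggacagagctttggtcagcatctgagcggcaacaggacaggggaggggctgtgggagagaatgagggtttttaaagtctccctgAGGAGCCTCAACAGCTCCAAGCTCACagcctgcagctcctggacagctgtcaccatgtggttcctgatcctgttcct

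Over the 6 kallikreins the identity between windows was 79% to 87.1%. The shared stretch begins at -18 in Klk1b1 and -27 in Klk1b5 relative to the start site given for each.

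The transcription factors of PDC followed its markers. Of 14, 8 were higher in PDC and 0 in IKDC, with a median of -1.69. Tcf4 had signals of 3220.4 and 4106 in PDC and 472 and 434 in IKDC (-2.96 ± 0.24, adjusted p = 9.25e-05), and both of its probe sets passed. Spib, an ETS factor required in PDC and B cells, stood at 1526 and 2944 against 239.5 and 117 (-3.54 ± 0.40), and Bcl11a, a zinc finger factor of PDC and B cells, at 1876 and 2327 against 429.5 and 378 (-2.33 ± 0.23) by 1 of its 2 probe sets. For all 3 the groups were apart, with PDC replicate 2 the higher. Irf8, a factor of dendritic cell development, had 8841 and 8504 against 1668 and 1579.7 (-2.41 ± 0.26), and Xbp1, the factor of secretory cells, 757 and 1416 against 174 and 192 (-2.40 ± 0.33). Cbfa2t3 did not pass (-1.23 ± 0.41, adjusted p = 0.153), nor did Zfp521 (-1.28 ± 0.58) or Ikzf1, which had higher signals in IKDC (1.08 ± 0.27, adjusted p = 0.0545).

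Of the E and Id proteins, Tcf4 and Id2 passed in opposite directions. Tcf3 (0.73 ± 0.73), Tcf12 (0.21 ± 0.39) and Id3 (-0.69 ± 0.33) did not. In cDC, Tcf4 stood at 474 and 553, close to its IKDC signals. The partner gene Lmo2 was higher in PDC, with 556 and 629.9 against 188 and 208 (-1.51 ± 0.31). The call on Lmo2 ended with median centring (adjusted p = 0.0705), without IKDC replicate 1 (0.142), without IKDC replicate 2 (0.102) and without PDC replicate 2 (0.0662). Of the 12 genes of this list 1 was higher in IKDC and 2 in PDC, and the median was 0.04.

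Sensing of nucleic acids separated the populations at several steps. Tlr7, the receptor of single-stranded RNA, had signals of 528 and 279.8 in PDC and 25.9 and 21.2 in IKDC, at least 6.41-fold higher in PDC (adjusted p = 0.000331). Unc93b1, which carries the endosomal receptors from the endoplasmic reticulum, stood at 240.1 and 363 against 42.9 and 28.8, at least 4.92-fold. Slc15a4, a transporter of the endolysosome, had 864 and 1249 against 306 and 287 (-1.76 ± 0.26). The IKDC signals of Tlr7 and Unc93b1 were all under 60. Irf7, the master factor of interferon induction, had 18788 and 27391 in PDC and 5748 and 7099 in IKDC (-1.83 ± 0.25), while cDC had 6494 and 7375. Of its 3 probe sets 2 passed. The call on Irf7 ended with no intensity trend (adjusted p = 0.0787). Ly86, a partner of the receptor CD180, stood at 2500.3 and 3161 against 139.6 and 141 (-4.18 ± 0.26). Tlr9, the DNA receptor, was low in both, at 136 and 66.5 in PDC and 76.8 and 66.2 in IKDC, and did not pass (-0.36 ± 0.50, 95% interval -1.48 to 0.77). In 3 of these 4 samples Tlr9 lay under the highest control of U74B, so this probe set gives little information on the gene.

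Of 31 genes in the Toll-like receptor and interferon induction list, 8 were higher in PDC and 1 in IKDC, with a median of -0.26. The PDC count was 5 without IKDC replicate 1, 5 without IKDC replicate 2 and 5 without PDC replicate 2. The exception was Ddx58, which encodes the cytosolic RNA sensor RIG-I, with 1110.2 and 918 in IKDC and 278 and 265 in PDC (1.84 ± 0.27, adjusted p = 0.00343). Adaptors and kinases shared with other cells did not pass, among them Myd88 (-0.79 ± 0.31), Irak1 (-0.34 ± 0.28), Tbk1 (0.35 ± 0.31) and Irf3 (-0.25 ± 0.30). Interferon-stimulated genes were mixed. Of 31, 4 were higher in PDC and 2 in IKDC, with a median of -0.48. In PDC, besides Bst2, they were Ly6e (-1.77 ± 0.34), Stat2 (-1.56 ± 0.27) and Mx1 (-1.80 ± 0.41). The call on Ly6e ended without IKDC replicate 1 (adjusted p = 0.123) and without PDC replicate 2 (0.0782). The call on Stat2 ended with no intensity trend (adjusted p = 0.0662), without IKDC replicate 1 (0.08) and without PDC replicate 2 (0.0513). The call on Mx1 ended without IKDC replicate 1, IKDC replicate 2, PDC replicate 2, cDC replicate 1 or cDC replicate 2 and in 4 other settings (adjusted p up to 0.175). The PDC count was 1 without IKDC replicate 1 and 1 without PDC replicate 2. In IKDC they were the guanylate binding protein genes Gbp2 (at least 2.46-fold) and Gbp3 (1.37 ± 0.28), and neither passed when either IKDC sample was left out, with adjusted p of 0.156 to 0.199. Gbp3 also failed to pass without PDC replicate 2 (adjusted p = 0.0529).

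Genes of antigen presentation on MHC class II were lower in IKDC. Of 19, 12 were higher in PDC and 0 in IKDC, with a median of -1.76. H2-Ab1, a class II chain, had signals of 658 and 381 in IKDC, 3380.3 and 4549.9 in PDC and 8995 and 7779 in cDC (-2.93 ± 0.31, adjusted p = 0.000256). Cd74, the invariant chain, stood at 1111 and 949.7, 4945 and 5372 and 12644 and 11873 (-2.31 ± 0.26). H2-Eb1 had 1186 and 850.5, 4579 and 5991 and 15067 and 13173 (-2.36 ± 0.29). In these 3 genes the order was IKDC, PDC, cDC with no overlap, and the IKDC signals were still far above 60. Of the peptide loading genes, H2-DMb1 had 224 and 135 in IKDC and 917 and 1294 in PDC (-2.54 ± 0.31), and the processing protease gene Ctss 1544 and 1164 against 6798 and 6624 (-2.31 ± 0.27). IKDC replicate 1 was above IKDC replicate 2 in 18 of the 19 genes, with a median of 0.4. The class II regulator gene Ciita (-0.29 ± 0.38) and the factors Rfx5 (0.11 ± 0.36) and Rfxap (0.01 ± 0.33) did not pass, nor did H2-DMb2 (0.27 ± 0.42) or H2-Ob (0.55 ± 0.35).

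MHC class I genes mostly did not pass and had high signals in both populations. H2-K1 had 9094 and 7468 in IKDC and 7944 and 7045 in PDC (0.14 ± 0.27, 95% interval -0.46 to 0.73), and B2m, the shared light chain, 6256 and 6294 against 5248 and 4534 (0.36 ± 0.28, interval -0.25 to 0.97). Neither interval reached 1 log2 unit, nor did that of H2-D1 (0.14 ± 0.34, interval -0.61 to 0.89). The probe sets of H2-K1 and H2-D1 are of a type shared within gene families, so single class I genes cannot be told apart by them. Of 16 genes 1 was higher in PDC, H2-M3, and 0 in IKDC. The call on H2-M3 ended when any 1 of the 6 samples was left out and in 4 other settings (adjusted p up to 0.271).

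**Figure D4:**
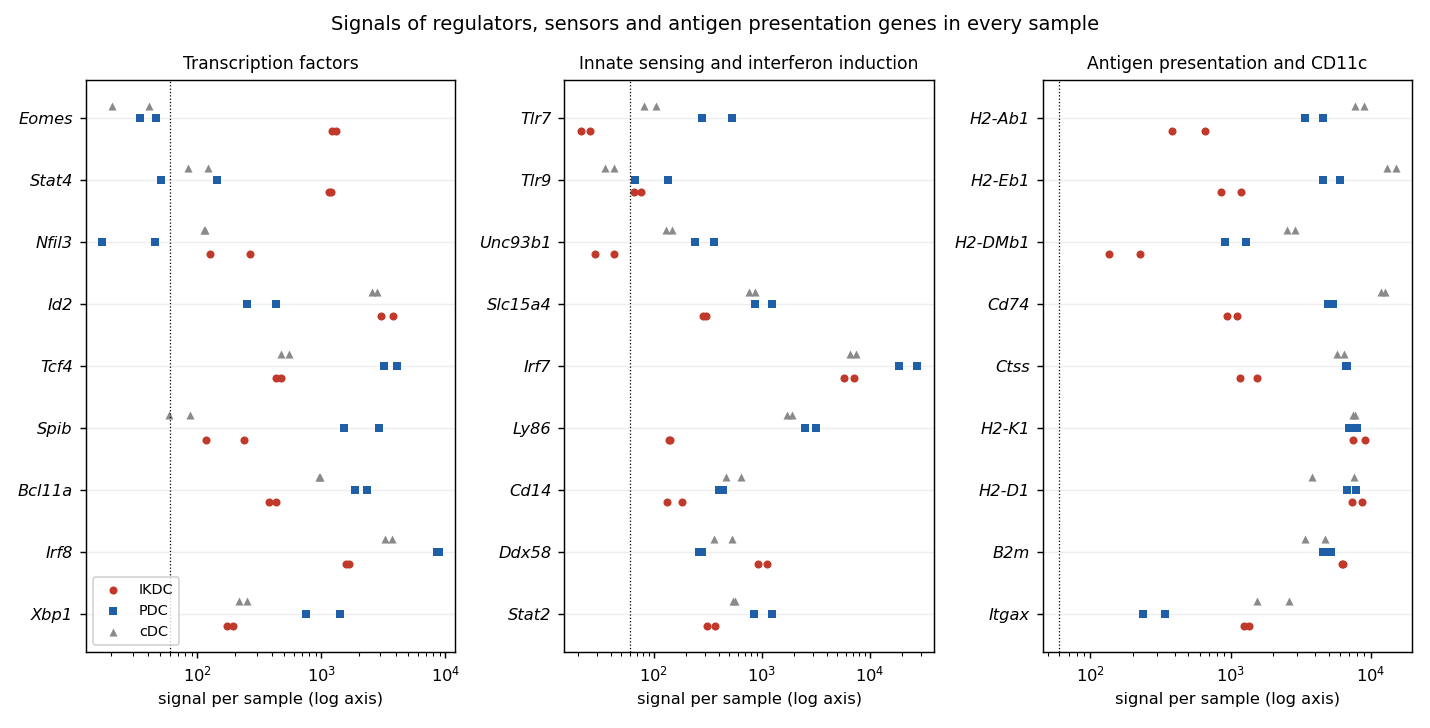
Signal in every sample (log axis) for transcription factors, innate sensing genes and antigen presentation genes, with IKDC as red circles, PDC as blue squares and cDC as grey triangles. The dotted line is the signal of 60. Id2 and Tcf4 run in opposite directions, Tlr7 and Unc93b1 are under 60 in IKDC only, and class II genes are lowest in IKDC while H2-K1 and H2-D1 overlap.

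Genes known from conventional dendritic cells differed both ways. Of 32, 8 were higher in PDC and 4 in IKDC, with a median of -0.07. Clec10a, a lectin gene, had 356 and 296 in IKDC and 2517 and 2802 in PDC (-2.97 ± 0.24), and Cst3, a cystatin of dendritic cells, differed by -2.25 ± 0.27. Cd8a was at least 7.87-fold higher in PDC, at 409.6 and 544 against 20.2 and 21.6. Both PDC samples stood well above both IKDC samples in these 3 genes. The 4 higher in IKDC were Id2, Kit, Itgax and Traf1, a signalling adaptor of TNF receptors (2.03 ± 0.29). The lineage factor Zbtb46 (0.09 ± 0.50) and Batf3 (-0.03 ± 0.32) did not pass, with Batf3 at 83.2 and 77.3 in IKDC, 112 and 59.3 in PDC and 1124 and 1099 in cDC. Itgax, which encodes CD11c, was the other way round, with 1249 and 1359 in IKDC, 238 and 339 in PDC and 1556 and 2614 in cDC (2.13 ± 0.31, adjusted p = 0.00204). The IKDC signals of Itgax thus lay between those of PDC and cDC without overlap.

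Of 23 integrins and adhesion molecules 5 were higher in IKDC and 0 in PDC, with a median of 0.61. The IKDC count was 2 with no trend, 2 without IKDC replicate 1 and 2 without IKDC replicate 2. Besides Cd2 and Itgax they were Itgb2, the shared chain of the leukocyte integrins (1.81 ± 0.38), Itgav (1.28 ± 0.27) and Icam2 (1.57 ± 0.40). None of these last 3 passed without either IKDC sample, nor Itgb2 or Itgav without PDC replicate 1, nor Icam2 without PDC replicate 2. With no intensity trend all 3 missed the threshold (adjusted p = 0.0627 for Itgb2, 0.057 for Itgav and 0.0678 for Icam2). Itgb2 also missed it with median centring (0.0539). Icam2 did so with no filter (0.0898), a pseudocount of 1 (0.113) and quantile normalization (0.0846). Homing receptors differed one by one. Ccr9, a receptor for gut homing, had 1034 and 773 in PDC and 65.0 and 75.8 in IKDC (at least 7.29-fold), and both probe sets passed. S1pr5, which guides NK cells out of tissue, stood at 1381 and 1608 in IKDC and 244 and 143 in PDC (2.89 ± 0.32). Each was separate by several fold in opposite directions. Cxcr3 (-1.08 ± 0.27) was the second receptor higher in PDC, and the other 10 of 13 did not pass. The call on Cxcr3 ended when any 1 of the 6 samples was left out and in 3 other settings (adjusted p up to 0.308).

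Most members of the secretory, proliferative and early response lists did not pass. Over all tested genes 2.74% were higher in IKDC and 3.12% higher in PDC. The leading direction of each list had a larger share, and its count fell under several settings. Of 49 genes of the secretory pathway 6 were higher in PDC and 0 in IKDC, with a median of -0.41. The PDC count was 2 with median centring, 1 with no trend, 2 without IKDC replicate 1, 2 without IKDC replicate 2 and 2 without PDC replicate 2. Xbp1 was the largest, and chaperone genes such as Hspa5 (-0.09 ± 0.30) and Pdia4 (0.17 ± 0.42) did not pass. Of 38 cell cycle genes 6 were higher in IKDC and 1 in PDC, with a median of 0.70. The IKDC count was 3 with quantile normalization, 1 without IKDC replicate 1, 1 without IKDC replicate 2 and 3 without PDC replicate 1. Stmn1, a microtubule regulator of dividing cells, had 1729 and 1800.1 against 309 and 364 (2.34 ± 0.33), while Ccnb2 (0.96 ± 0.30) and Ccna2 (0.40 ± 0.36) did not pass. The gene higher in PDC was Ccnd1, a cyclin of early cell cycle (-1.37 ± 0.29). The call on Ccnd1 ended without IKDC replicate 1, IKDC replicate 2 or PDC replicate 1 and in 4 other settings (adjusted p up to 0.477). Of 31 immediate early and heat shock genes 5 were higher in IKDC and 0 in PDC. The IKDC count was 3 with no trend, 3 with quantile normalization, 2 without IKDC replicate 1 and 3 without PDC replicate 2. Nr4a1, a nuclear receptor induced by antigen receptor signals, had 1592 and 1039 in IKDC, 152 and 134 in PDC and 2350 and 2935 in cDC (3.04 ± 0.29), and Egr2 was at least 6.65-fold higher. Of the 2 probe sets of Nr4a1, 1 passed. Fos (0.33 ± 0.27), Jun (-0.32 ± 0.31) and the heat shock gene Hspa1a (0.54 ± 0.88) did not pass. The median difference of replicate 1 over replicate 2 in this list was 0.49 in IKDC and 0.56 in PDC.

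**Figure D5:**
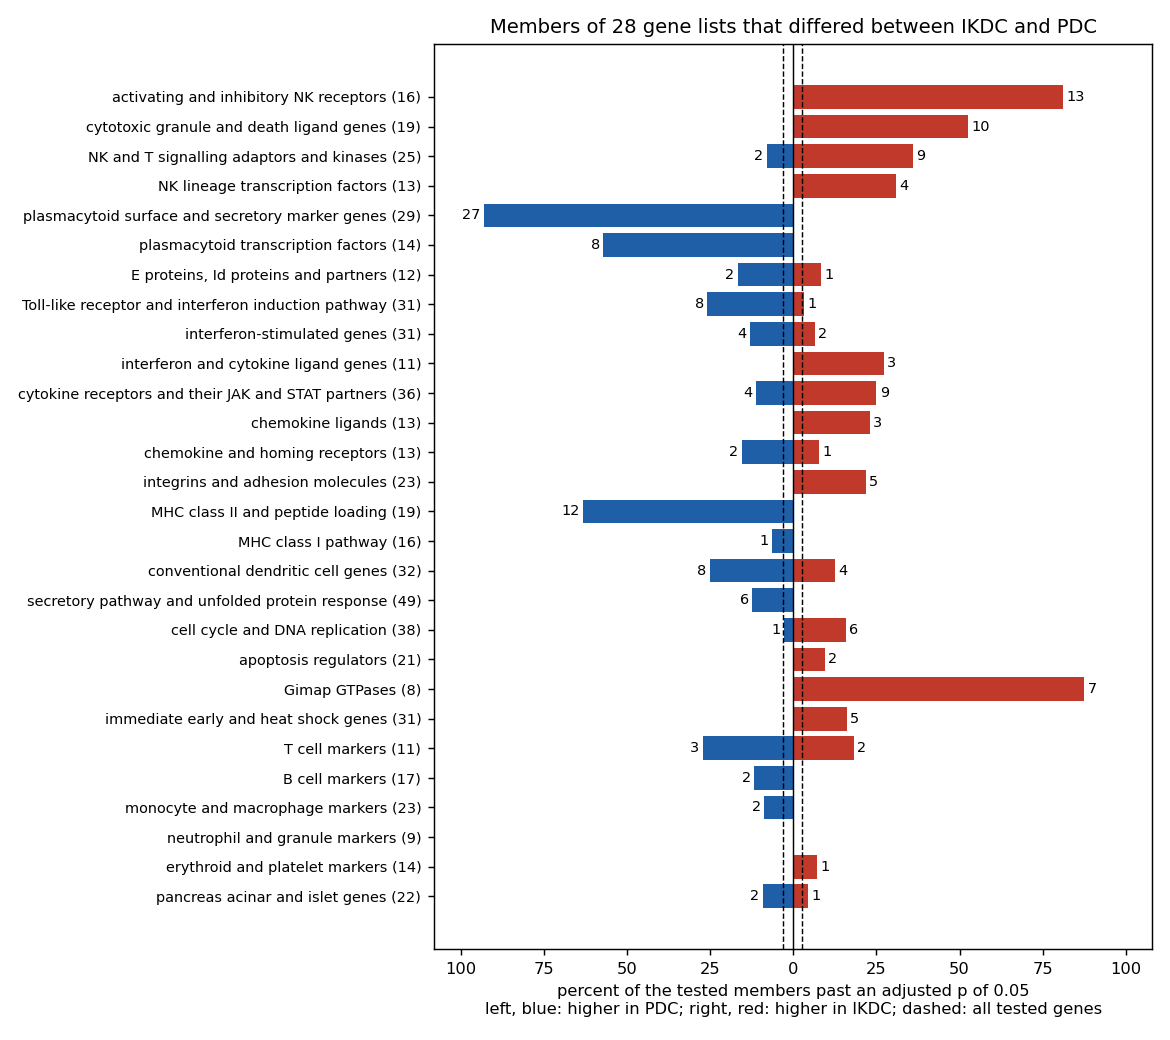
Percent of the tested members of each of 28 gene lists (number tested in brackets) that passed an adjusted p of 0.05, higher in IKDC to the right and higher in PDC to the left, with the number of genes at each bar. Dashed lines give the 2.74% and 3.12% of all tested genes. NK receptors, Gimap genes and cytotoxic genes extend to the right, and PDC markers, PDC transcription factors and MHC class II genes to the left.

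Markers of other cell types were measured in the same way. Of 11 T cell markers 2 were higher in IKDC, Cd27 (2.60 ± 0.37) and Cd3g (2.85 ± 0.66), and 3 in PDC, Cd8b1, Cd8a and Cd4 (-1.88 ± 0.36). The call on Cd3g ended without IKDC replicate 1, IKDC replicate 2 or PDC replicate 2 and in 2 other settings (adjusted p up to 0.376). The call on Cd4 ended with median centring (adjusted p = 0.0546), without IKDC replicate 2 (0.139) and without PDC replicate 2 (0.0635). The 9 on U74A summed to 2625 and 2145 in IKDC and 3910 and 4530 in PDC, and Cd8b1 made up most of the PDC sum. The median difference of the 11 was 0.68. Both IKDC samples lay above both PDC samples in 5 of them, and the reverse held in 3, against 23.9% and 22.2% of all tested genes. Of 17 B cell markers, the 15 on U74A summed to 13698 and 8886 in IKDC and 15926 and 11899 in PDC, with 2 higher in PDC, Fcrla (-2.62 ± 0.43) and Ighm (-1.49 ± 0.32), and 0 in IKDC. The call on Fcrla ended without IKDC replicate 2 (adjusted p = 0.0568) and without PDC replicate 2 (0.0561). The call on Ighm ended without IKDC replicate 2, PDC replicate 1 or PDC replicate 2 and in 3 other settings (adjusted p up to 0.895). Of the 8 probe sets of Ighm, 1 passed. The B cell sums in cDC were 3037 and 3255. Of 23 monocyte and macrophage markers 2 were higher in PDC, Cd68 (-3.28 ± 0.28) and Cd14 (-1.36 ± 0.30), and 0 in IKDC. The call on Cd14 ended without IKDC replicate 1, IKDC replicate 2, PDC replicate 1 or PDC replicate 2 and in 2 other settings (adjusted p up to 0.247). The 16 on U74A summed to 2985 and 3863 in IKDC, 5755 and 6336 in PDC and 12681 and 14539 in cDC. Of 9 neutrophil markers none passed by limma, and none had an unadjusted p under 0.05.

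Erythroid transcripts were high in both populations. Hba-a1, which encodes alpha globin, had 12060 and 13456 in IKDC, 21121 and 8068 in PDC and 516 and 1348 in cDC, and Hbb-b2 4195 and 5308, 3419 and 4016 and 206 and 471. IKDC and PDC overlapped or lay close for both, with -0.04 ± 0.48 and 0.35 ± 0.36, and the sign of Hba-a1 turned with median centring (0.096) and quantile normalization (0.261). Of 14 erythroid and platelet genes 1 was higher in IKDC, Car2 (1.40 ± 0.29), and 0 in PDC. The call on Car2 ended with no intensity trend (adjusted p = 0.0595), without IKDC replicate 1 (0.0808), without IKDC replicate 2 (0.226) and without PDC replicate 1 (0.0874). The 10 on U74A summed to 20363 and 24084 in IKDC, 27838 and 15113 in PDC and 2277 and 3379 in cDC. The pancreas list summed to 5503 and 4408 in IKDC and 10712 and 11876 in PDC on U74A, where Klk1 and Klk1b5 made up most of the PDC sum. On U74B the sums were 1698 and 1165 against 558 and 393, and on U74C 1213 and 1314 against 507 and 755. The median difference of the 22 tested members was 0.85. Both IKDC samples lay above both PDC samples in 14 of them, and the reverse held in 2. Over all tested genes these shares were 23.9% and 22.2%. The part of other cells in the differences above was not tested.

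Most genes with high signals in both populations did not pass, and neither did most of all tested genes, of which 5.86% passed. Of the 615 genes with a mean of at least 1000 in both, 367 had a 95% interval within 1 log2 unit of equality and 39 passed the threshold. Eef1a1, an elongation factor gene, had 15694 and 12014 in IKDC and 14552 and 12814 in PDC (0.01 ± 0.29, 95% interval -0.63 to 0.64), and Tpt1 10582 and 10547 against 13044 and 8398 (0.01 ± 0.32, interval -0.69 to 0.71). Actb overlapped between the groups (0.35 ± 0.53, interval -0.82 to 1.52). Ptprc, the leukocyte antigen CD45, was higher in IKDC, with 3076 and 3206 against 771 and 1232 (1.67 ± 0.36, adjusted p = 0.0213), by 1 of its 2 probe sets. The call on Ptprc ended with no intensity trend (adjusted p = 0.066), without IKDC replicate 1 (0.11), without IKDC replicate 2 (0.133) and without PDC replicate 1 (0.156). Over all tested genes, 3121 (25.6%) had an interval within 1 log2 unit, so for most genes 2 samples a group could neither show nor exclude a 2-fold difference.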

How the data were processed

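Expression was compared between 2 IKDC and 2 PDC samples, with 2 cDC samples in the same model. Per the labels' protocols, Trizol RNA was column-purified, amplified in a pair of rounds and hybridised as biotin-labelled cRNA. The deposited values are linear signal intensities made by the authors with GCOS 1.1.1, brought on every array to a mean of 150, per the labels. MAS5 is named in the submitters' processing notes. Amplification favours 3' ends, and scaling makes every difference relative to an array's mean. Precision is limited by the number of arrays.

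From these intensities log2(signal + 16) was computed, which understates changes of low genes. Control probe sets were left out, and 23285 of the other 36701, those reaching 60 on 2 of 6 arrays, were fitted by array type with limma 3.58.1 in R 4.3.3, with an intensity trend. Fits leave 3 residual degrees of freedom before moderation. The fit was tested on simulated data. Symbols come from the platform annotation: 29131 probe sets had 1 symbol, 724 several and 6846 none. A gene is its tested probe set with the highest mean over IKDC and PDC. Tables were made with pandas in Python, and alignments with Biopython.

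The populations, genes and lists were chosen with earlier results of these data known. Named by rule were the 15 largest differences each way past the threshold with separate groups and a mean of at least 200, up to 6 list members with the smallest adjusted p, the markers, selected pathway genes and 6 genes with high signals and intervals within 1 log2 unit. In a list where fewer than 2 members passed, the 2 with the highest signals were taken. Further list members and the other kallikreins were chosen after their values were seen, as was the control bound on U74B and U74C. Alternatives were pseudocounts of 1 and 64, no filter and one at 200, quantile normalization, median centring, no trend, IKDC and PDC alone, adjustment within array types, a replicate block, a mean over a gene's probe sets and leaving out each sample.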

Additional observations from a re-analysis of the deposited data

How the results depend on the processing

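The counts of 480 probe sets higher in IKDC and 556 higher in PDC stayed within 1.5 times under 10 other settings, at 324 to 587 and 396 to 636. Leaving out 1 sample gave 184 to 451 and 307 to 477. The first count moved by over 1.5 times without either IKDC sample, and the second without either IKDC sample or PDC replicate 2. Such fits have fewer samples, and the lone sample left in a population is assumed to vary like the others. Of the 1036 probe sets, 471 to 842 also passed with 1 sample left out, and 677 to 1020 under the other settings. Median centring shifted the median difference of all probe sets to 0.059. Of 139 genes named by the rule 124 passed, and 85 of them also passed under all 17 alternatives that gave them a value. None of the 124 changed direction. The genes that did change direction had all missed the threshold. They were Elane (0.0) and Hba-a1 (0.096) with median centring, and Hba-a1 (0.261) and Rps24 (0.076) with quantile normalization. With 1 sample left out, the differences ran from -0.737 to 0.105 for Csf3r, -0.185 to 0.201 for Eef1a1, -0.689 to 0.427 for Elane, -0.003 to 0.281 for H2-K1, -0.729 to 0.658 for Hba-a1, -0.154 to 0.05 for Laptm5, -0.525 to 0.062 for Rps20, -0.491 to 0.201 for Rps24, -0.797 to 0.082 for Tlr9 and -0.304 to 0.331 for Tpt1. The cause of these changes was not tested. With the replicate number as a block, 587 and 636 probe sets passed. The labels do not say whether the numbers pair the samples, and pairing was not tested. The correlation of the replicate differences was 0.07 between IKDC and PDC, a value over all probe sets that cannot settle it. No named gene lost its call with the block. Signals on U74B and U74C under the highest control limit what low genes show, and 2 samples a group limit the rest.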

Other observations

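Genes of lysosomes and of cholesterol synthesis, from lists written after their values were seen and given with no test of the list, were more often higher in PDC. Of 39 tested genes of lysosomal enzymes, cofactors and membrane proteins, 10 were higher in PDC and 2 in IKDC by limma, with a median difference of -0.44. Among all tested genes 3.12% were higher in PDC and 2.74% in IKDC. Ctsh, a cathepsin gene, had signals of 2582 and 3404 in PDC and 154 and 103 in IKDC (-4.39 ± 0.34, adjusted p = 2.51e-05). Ctsb, another cathepsin gene, stood at 5395 and 7554 against 948 and 914 (-2.76 ± 0.28), and Grn, which encodes progranulin, at 3919 and 5049.8 against 470.1 and 456 (-3.22 ± 0.25). Both PDC samples were far above both IKDC samples in these 3 genes. Slc29a3, a nucleoside transporter of the lysosome, differed by -2.62 ± 0.27 and Psap, the precursor of sphingolipid activators, by -2.27 ± 0.28. The 2 higher in IKDC were Arsb, a sulfatase gene, with 2024 and 3044 in IKDC against 436 and 499 in PDC (2.37 ± 0.26), and Ctsd (1.40 ± 0.26). All of these passed with any 1 sample left out except Ctsd, which did not pass in 3 of the 6 such fits. Of the other genes counted as higher in PDC, Asah1 and Ctsz passed in each of these fits. Lgmn missed the threshold in 6 of 6, Scarb2 in 4 and Hexa in 3.

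Of 26 tested genes of cholesterol synthesis and sterol sensing, 10 were higher in PDC and 0 in IKDC, with a median of -0.96. Over all tested genes the shares were 3.12% and 2.74%. The count higher in PDC fell to 5 without IKDC replicate 1, 1 without IKDC replicate 2 and 6 without PDC replicate 2. Both PDC samples lay above both IKDC samples in 17 of the 26, and both IKDC samples above both PDC samples in 2. Over all tested genes these shares were 22.2% and 23.9%. Npc1, which exports cholesterol from lysosomes, had 705 and 1313 in PDC and 176 and 172 in IKDC (-2.36 ± 0.33, adjusted p = 0.00143), and passed with any 1 sample left out. Sqle, an enzyme of the sterol branch, stood at 253 and 547 against 79.8 and 66.5 (-2.13 ± 0.37), and Idi1, an earlier enzyme, at 359 and 633 against 116 and 90.5 (-2.06 ± 0.34). Without IKDC replicate 2 neither passed (adjusted p = 0.0602 and 0.058), and Npc1 was the 1 gene of the list that did.

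Another list written after its values were seen held T cell receptor segments, of which 3 were tested and 2 were higher in IKDC. Trbv1, a variable segment of the T cell receptor beta chain, had signals of 7346 and 5189.5 in IKDC and 1009 and 259 in PDC (3.54 ± 0.49, adjusted p = 0.00139). Trgv1, of the gamma chain, stood at 853 and 548 against 166 and 81.2 (2.40 ± 0.38), and did not pass without IKDC replicate 1 (adjusted p = 0.0579). The remaining one, Trgv4, did not pass (1.07 ± 0.57, adjusted p = 0.436). Trbv1 and Trgv1 were both higher in PDC replicate 1 than in PDC replicate 2. In 3 genes different probe sets passed in opposite directions, namely Map1a, Tsc22d1 and Zmiz1.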
